A study of Mus musculus with 45 samples.

Results

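Genes of the Notch pathway and of secretory cell fate were examined in epithelium of the mouse colon after a control diet, in diet-induced obesity and after weight loss. They were chosen by gene symbol, with no cutoff on measured values, but with earlier results of these data known. They were the receptor gene Notch1, the ligand genes Dll1, Dll4 and Jag1, and the target gene Hes1. The secretory fate genes were Atoh1, Gfi1, Spdef, Neurog3 and Klf4. All 10 symbols had a row among the 24918 entries of the RNA-seq count table, and all 10 passed the filter on low counts that left 12961 tested genes. The study used male C57BL/6 mice (C57BL/6J in the methods of the study) that were 6 weeks old when the diets began, with 5 mice per group. Control mice (LF) ate a diet with 10% fat for 20 weeks, obese mice (HF) a diet with 60% fat for 20 weeks, and formerly obese mice (HFLF) the 60% fat diet for 15 weeks and then the 10% fat diet for 5 weeks. Epithelium was released from the whole colon with EDTA, so each RNA-seq library mixes the epithelial cell types of 1 mouse. A lower level of a gene in such bulk samples can mean fewer cells of a type or less RNA per cell, and these cannot be told apart here.

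Notch signalling passes between neighbouring cells. A ligand of the Delta or Jagged family on one cell binds a Notch receptor on the next, the receptor is cut by ADAM proteases and gamma-secretase, and its intracellular domain joins the DNA-binding protein RBPJ to switch on targets such as Hes1. In intestinal crypts the Hes1 protein represses Atoh1, so that cells with active Notch become absorptive colonocytes, while cells that escape it express Atoh1 and Notch ligands and become goblet, enteroendocrine or other secretory cells.

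The libraries held 15230391 to 22762095 gene counts. Epithelial genes were high in each of them, with Epcam at 1975 to 2219 CPM (a gene's counts scaled to a common library total, after TMM adjustment of the totals). The 7 smooth muscle markers summed to 0.339 to 2.89 CPM, and the endothelial gene Cdh5 was at 0 in 7 of the 15 libraries. The 12 immune markers summed to 23.2 to 49.6 CPM in control, 32.7 to 64.6 in obese and 27.3 to 55.3 in formerly obese mice, and the 7 fibroblast markers to 2.34 to 11, 6.91 to 17.9 and 6.14 to 31.2 CPM.

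Set per kilobase of exon, which allows levels to be compared between genes, the members covered a wide range. Klf4, a zinc finger factor of goblet cells and of differentiated surface cells, had the highest level at 255.5 ± 17.4 CPM per kb (SD, n = 15 mice), and Hes1 followed at 57.9 ± 4.72. Spdef and Atoh1 lay side by side at 30.2 ± 4.09 and 29.9 ± 3.12 CPM per kb, with overlapping ranges over the mice. Notch1 was at 7.13 ± 0.644, and the ligands Jag1, Dll1 and Dll4 at 5.41 ± 0.70, 5.18 ± 0.88 and 4.71 ± 0.743 CPM per kb, which did not differ beyond their spread. Gfi1 (3.16 ± 0.516) and Neurog3 (0.945 ± 0.256) had the lowest levels, and the mice with the highest Neurog3 stayed below the mice with the lowest Gfi1.

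**Figure D1:**
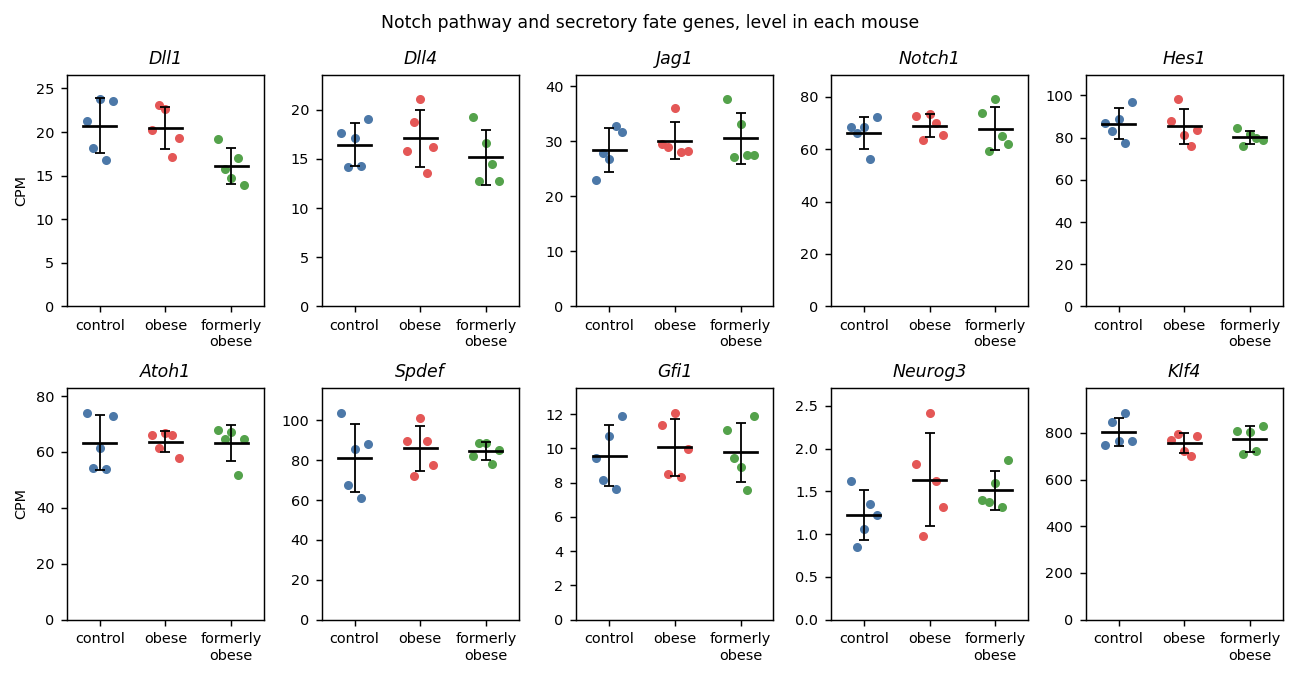
Level of each of the 10 members in CPM (vertical axes, starting at 0) in every mouse, by diet group. Points are single mice, horizontal bars are group means and error bars are 1 SD (n = 5). The 3 groups overlap for each gene, and the formerly obese mice sit lowest for Dll1, at 14 to 19.2 CPM.

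A gene was called when edgeR's quasi-likelihood test gave a fold change over 1.2 in either direction, a p-value under 0.01 and a Benjamini-Hochberg adjusted p under 0.25, the cutoffs of the study. In obese against control mice, which asks what differs with diet-induced obesity, 0 of the 10 members were called by edgeR and 0 by DESeq2, and 0 had an unadjusted p under 0.05. Of all tested genes, 1.58% were called in this comparison and 10.9% had an unadjusted p under 0.05. In formerly obese against control mice, which asks what differs after weight loss, 1 member was called, where 3.72% of all tested genes were, and in formerly obese against obese mice 1 member was called, where 2.65% of all tested genes were. The called gene was Dll1 both times, and it was lower, as 1.87% and 1.42% of all tested genes were. Each pair of comparisons shares a group of mice, so they are not independent of each other.

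Dll1 encodes a Delta-like ligand that secretory precursor cells carry on their surface (mm10, chromosome 17, 15367354 to 15375823, minus strand). In control mice its level was 21.3, 18.1, 23.8, 16.8 and 23.6 CPM in order of replicate. In obese mice it was 20.2, 23.1, 22.6, 17.1 and 19.3 CPM. In formerly obese mice it was 19.2, 15.7, 14.7, 17.1 and 14 CPM. Control and obese mice covered the same range, while 3 of the 5 formerly obese mice lay below each control mouse and 4 of the 5 below each obese mouse. Dll1 fell from a mean of 20.7 ± 3.16 CPM in control and 20.5 ± 2.46 in obese mice to 16.1 ± 2.07 CPM in formerly obese mice (SD, n = 5). The log2 fold change was -0.36 against control mice (SE 0.11, 95% interval -0.60 to -0.12, edgeR adjusted p = 0.107) and -0.34 against obese mice (SE 0.11, 95% interval -0.58 to -0.11, edgeR adjusted p = 0.178). A two-sided exact permutation test over the mice gave p = 0.0397 and p = 0.0159, unadjusted. Between obese and control mice the difference was -0.02 (95% interval -0.25 to 0.22).

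The direction of the Dll1 difference held in each alternative run, but its call depended on single mice. Against control mice it was lost on leaving out single libraries in 6 of 15 fits, namely without control replicate 1 (log2 -0.35, edgeR adjusted p = 0.186), control replicate 3 (-0.31, 0.179), control replicate 5 (-0.31, 0.227), formerly obese replicate 2 (-0.35, 0.153), formerly obese replicate 3 (-0.33, 0.196) or formerly obese replicate 5 (-0.31, 0.191). Against obese mice it was lost in 7 fits, namely without obese replicates 1, 2, 3 or 5 (log2 -0.35, -0.30, -0.30 and -0.36) or formerly obese replicates 2, 3 or 5 (log2 -0.33, -0.31 and -0.30), with edgeR adjusted p-values of 0.226 to 0.395. Both calls were also lost at an adjusted p under 0.05, which 2.18% and 0.193% of all tested genes met in these comparisons, and when a replicate block was combined with removal of each library's GC trend (log2 -0.33 and -0.32, edgeR adjusted p = 0.156 and 0.262). Formerly obese replicates 2 and 5 had the lowest GC trends of the 15 libraries (-0.208 and -0.168 in log2, the genes in the top decile of exon GC content minus those in the bottom decile, against -0.063 to 0.129 in the others), and removal of the trend alone kept both calls (edgeR adjusted p = 0.135 and 0.245).

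The RefSeq annotation (GRCm38.p6) gives Dll1 a pair of start sites. The 250 bases before the upstream one are shown because Dll1 was the member that was called, with the letters CAGCTG, an E-box of the class bound by Atoh1-type factors, in capitals (chr17:15376933-15377182, minus strand). The window before the other start, at the gene coordinates given above (chr17:15375824-15376073), holds no CAGCTG.

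Dll1 upstream: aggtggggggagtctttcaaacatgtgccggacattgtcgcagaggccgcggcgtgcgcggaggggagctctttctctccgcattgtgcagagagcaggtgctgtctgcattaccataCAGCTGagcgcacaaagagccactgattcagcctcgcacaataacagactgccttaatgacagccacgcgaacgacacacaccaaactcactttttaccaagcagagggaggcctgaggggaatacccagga

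Dll4, a second Delta-like ligand also known from blood vessels (chromosome 2, 119325784 to 119335666), was at 17.6, 14.2, 17.2, 14.3 and 19 CPM in control mice. Obese mice had 15.9, 18.8, 21.1, 13.6 and 16.2 CPM and formerly obese mice 19.2, 12.7, 16.6, 14.5 and 12.8 CPM. The 3 groups overlapped. Its log2 fold change in formerly obese mice was -0.12 against control (95% interval -0.39 to 0.16, edgeR adjusted p = 0.705) and -0.17 against obese mice (95% interval -0.45 to 0.11, edgeR adjusted p = 0.622), and the difference from the change in Dll1 was not tested. Endothelial cells are a possible second source of Dll4. The 10 endothelial markers summed to 11 to 18.1 CPM in control mice. The sums were 10.1 to 13.6 CPM in obese and 10.1 to 15.9 CPM in formerly obese mice. Vwf, Pecam1 and Esam made up most of these sums, with means of 5.85, 5.07 and 1.5 CPM over the 15 mice. The other listed markers had means of 0.028 to 0.276 CPM. The part of endothelial cells in the Dll4 level was not tested. Jag1, the Jagged ligand (chromosome 2, 137081451 to 137116520), ranged from 23.1 to 32.8 CPM in control, 28 to 36 in obese and 27.1 to 37.6 CPM in formerly obese mice. The highest Jag1 levels were 36 CPM in obese replicate 3 and 37.6 CPM in formerly obese replicate 1, and the group means differed by a log2 fold change of at most 0.10 (SE 0.11).

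Notch1, the receptor (chromosome 2, 26457902 to 26503822), ranged from 56.1 to 72.2 CPM in control, 63.4 to 73.3 in obese and 59.2 to 79 CPM in formerly obese mice. Control replicate 4 was lowest and formerly obese replicate 3 highest, and the group means lay within 66.3 and 68.9 CPM. Hes1, the repressor that Notch switches on (chromosome 16, 30065357 to 30067796), was at 86.8, 83, 89, 77.3 and 97.1 CPM in control mice. It was at 88, 98.2, 81.2, 75.9 and 83.7 CPM in obese mice and at 84.5, 76, 81.9, 79.7 and 78.7 CPM in formerly obese mice. The formerly obese mice lay in the lower part of the range and spread least (coefficient of variation 4.03%, against 8.49% in control and 9.8% in obese mice). The log2 fold change of Hes1 was -0.02 in obese mice, and -0.11 (95% interval -0.25 to 0.03, edgeR adjusted p = 0.419) and -0.09 (95% interval -0.23 to 0.05, edgeR adjusted p = 0.603) in formerly obese against control and obese mice.

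Atoh1, the factor that commits cells to the secretory lineage (chromosome 6, 64729146 to 64731235), had group means of 63.3 ± 9.79, 63.7 ± 3.82 and 63.3 ± 6.56 CPM in control, obese and formerly obese mice (SD, n = 5). Single control mice were at 74.1, 54.1, 61.6, 53.9 and 72.8 CPM, obese mice at 66.2, 61.6, 66.7, 66.1 and 58 CPM, and formerly obese mice at 67.8, 64.7, 67.3, 51.8 and 64.8 CPM. The group means lay close together and the control mice were the most spread, with replicates 2 and 4 low. The 95% intervals of the Atoh1 log2 fold change were -0.19 to 0.20 in obese and -0.20 to 0.19 in formerly obese against control mice, so a change past the 1.2-fold cutoff (0.26 on the log2 scale) lay outside them.

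Spdef, an ETS factor that drives goblet cell maturation (chromosome 17, 27714447 to 27728951), was at 103.8, 67.7, 85.6, 61.3 and 87.9 CPM in control mice. Obese mice had 89.8, 72.1, 100.9, 89.6 and 77.6 CPM and formerly obese mice 82.1, 88.8, 88.7, 78.1 and 85 CPM. Control replicates 2 and 4 had the lowest Spdef levels of the 15 mice, and the formerly obese mice were close together (coefficient of variation 5.39%, against 20.9% in control mice, a difference in spread that was not tested). Gfi1, a repressor that separates goblet from enteroendocrine fate (chromosome 5, 107716655 to 107725805), ranged from 7.63 to 11.9 CPM in control, 8.36 to 12.1 in obese and 7.56 to 11.9 CPM in formerly obese mice. Neither gene differed in its mean by more than a log2 fold change of 0.08 in any comparison, with SEs of 0.12 for Spdef and 0.15 for Gfi1.

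Neurog3, which marks enteroendocrine progenitors (chromosome 10, 62133090 to 62134763), rested on 13 to 41 counts per library. It was at 1.62, 0.851, 1.05, 1.35 and 1.22 CPM in control, 1.82, 0.978, 2.42, 1.62 and 1.32 in obese, and 1.4, 1.38, 1.6, 1.32 and 1.87 CPM in formerly obese mice. The counting error of the lowest value was 0.453 to 1.46 CPM and that of the highest 1.74 to 3.28 CPM (exact Clopper-Pearson 95% intervals, which cover counting error only). The obese mean was nominally the highest and the groups overlapped (log2 fold change 0.42 against control, SE 0.24, 95% interval -0.09 to 0.92, edgeR adjusted p = 0.546). A difference of this size did not pass the test, and the parts of counting error and of the spread between mice in its SE were not separated. Klf4 (chromosome 4, 55527137 to 55532475), with 11270 to 18092 counts per library, had the narrowest intervals. Its group means were 802.8 ± 60.7, 756.2 ± 41.3 and 774.6 ± 54.8 CPM in control, obese and formerly obese mice (SD, n = 5), and its log2 fold changes were -0.09, -0.05 and 0.03 in the 3 comparisons, with SEs of 0.06. Klf4 is sometimes counted with the immediate early genes, which respond within minutes to handling and stimulation. Of the 16 immediate early genes listed, 10 were called lower in formerly obese against control mice and 5 against obese mice. Among the former were Ier2 (log2 -0.44, edgeR adjusted p = 0.0233) and Fosb (log2 -0.92, edgeR adjusted p = 0.0276). In these comparisons 1.87% and 1.42% of all tested genes were called lower. Klf4 itself was not called.

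**Figure D2:**
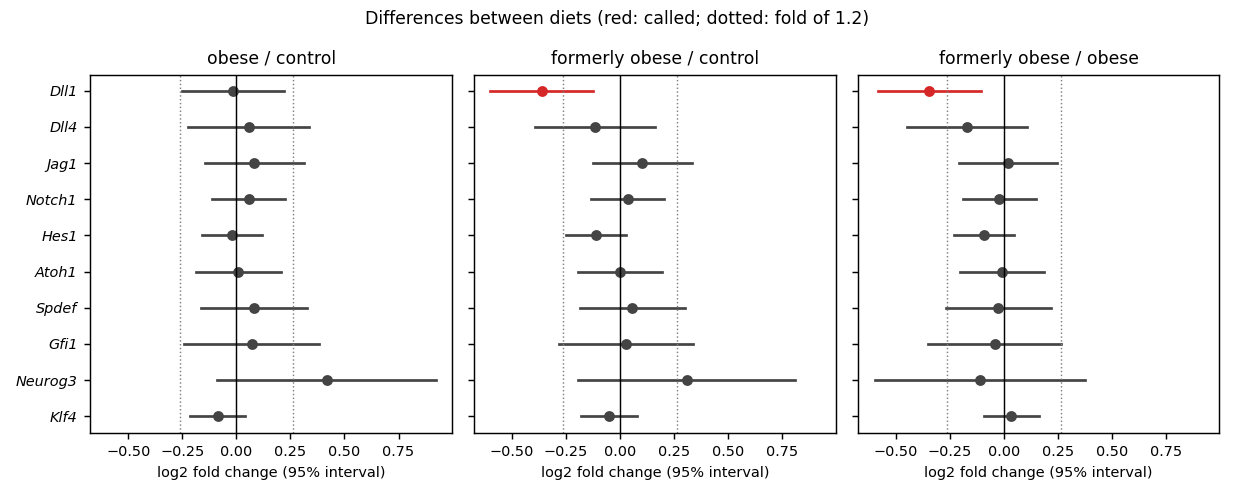
Log2 fold change (horizontal axis) of each member in the 3 comparisons, with 95% intervals from the edgeR fit of all 15 libraries. Red marks a call and dotted lines a fold of 1.2 in either direction. Dll1 is red at -0.36 and -0.34, and Neurog3 has the widest intervals.

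The intervals bound how far the uncalled members may have moved. In obese against control mice, the 9 members other than Neurog3 had 95% intervals within folds of 0.839 and 1.3, and Neurog3 reached 1.89. In formerly obese mice, the 8 members other than Dll1 and Neurog3 had intervals within folds of 0.761 and 1.26 against control and 0.733 and 1.2 against obese mice. The median log2 fold change over the 10 members was 0.06, 0.01 and -0.03 in the 3 comparisons in the order above, beside 0.0002, -0.0006 and 0.0023 over all tested genes. By sign alone 7, 5 and 2 of the 10 members were above 0, where 50.1%, 49.8% and 51% of all tested genes were.

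Members that act on the same cells were then compared across the 15 mice, whatever their diet. There were 8 listed pairs, and the other pairs of members and 7 pairs with marker genes were added after the data were seen, which gave 52 pairs. Correlations are of log2 CPM, p-values are from 100000 permutations, two-sided, and adjusted p-values (Benjamini-Hochberg) are over the 52 pairs unless stated. All levels share the scaling of their library, and correlated levels in bulk tissue can follow cell numbers.

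Atoh1 and Spdef rose and fell together (Pearson's r = 0.798, permutation p = 0.00045, adjusted p = 0.0114, or 0.0036 over the 8 listed pairs). Spearman's rho was 0.736 (permutation p = 0.00278, adjusted p = 0.0278). With each diet group centred on its own mean r was 0.809, and without control replicate 4 and formerly obese replicate 4, the mice farthest from the median of Atoh1, it was 0.804. Among 11035 genes with a mean of at least 50 counts, Spdef ranked 2 by its r with Atoh1. The others of the 5 highest were AA986860 (0.811), Ccar2 (0.784), Mbd5 (0.774) and Cldn15 (0.77), and the lowest were Zfand3 (-0.811) and Trappc12 (-0.767). Gfi1 was less closely tied to Atoh1 (r = 0.642, permutation p = 0.0105, adjusted p = 0.061, or 0.0281 over the 8 listed pairs, rho = 0.643, permutation p = 0.0117, adjusted p = 0.0606). Its r fell to 0.406 without the same 2 mice (adjusted p = 0.395 by permutation over the 8 listed pairs). The relation was weaker without these mice, whose removal also narrows the range of Atoh1. Muc2, the main goblet cell mucin, followed Spdef (r = 0.825, permutation p = 0.00012, adjusted p = 0.00624, rho = 0.743, permutation p = 0.00233, adjusted p = 0.0278), with r = 0.684 (adjusted p = 0.103 by permutation) without control replicates 2 and 4. It was at 2124 and 1771 CPM in these 2 mice, where Atoh1 and Spdef were also low, and at 2029 to 3704 CPM in the other mice. Muc2 with Atoh1 gave r = 0.56 (permutation p = 0.0305, adjusted p = 0.113). Other added pairs, Klf4 with Muc2, Klf4 with Krt20, Neurog3 with Chga and Gfi1 with Chga, had r of -0.519, 0.123, 0.503 and 0.442. Their adjusted p-values by permutation were 0.169, 0.763, 0.186 and 0.256. The part of goblet cell number in the Atoh1 and Spdef levels was not tested.

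Klf4 moved against Spdef (r = -0.696, permutation p = 0.00368, adjusted p = 0.0319, or 0.0147 over the 8 listed pairs, rho = -0.654, permutation p = 0.0101, adjusted p = 0.0585). Control replicates 2 and 4, the lowest in Spdef, were the highest in Klf4 at 847.9 and 886.6 CPM. Without them r was -0.384 (adjusted p = 0.395 by permutation over the 8 listed pairs), so the relation was weaker, and their removal also narrows the range of Spdef. Neurog3, despite its low counts, followed Spdef (r = 0.647, permutation p = 0.00911, adjusted p = 0.0592, rho = 0.686, permutation p = 0.00578, adjusted p = 0.0394, r = 0.691 without control replicates 2 and 4) more closely in these values than Atoh1 (r = 0.459, permutation p = 0.0839, adjusted p = 0.233, rho = 0.511, permutation p = 0.0539, adjusted p = 0.181), a difference that was not tested.

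Hes1 and Atoh1, repressor and repressed in the textbook circuit, were not inversely related across these mice (r = 0.307, permutation p = 0.268, adjusted p = 0.441, rho = 0.286, permutation p = 0.303, adjusted p = 0.477, r = 0.239 without control replicate 5 and obese replicate 2). Notch1 and Hes1 gave r = 0.312 (permutation p = 0.257, adjusted p = 0.441, rho = 0.314, permutation p = 0.252, adjusted p = 0.438), and r was -0.004 without control replicate 4 and formerly obese replicate 2. Hes1 was instead close to the Delta ligands. It followed Dll1 with r = 0.772 (permutation p = 0.00069, adjusted p = 0.0114, rho = 0.796, permutation p = 0.00073, adjusted p = 0.0278), with r = 0.735 once diet groups were centred and 0.704 (adjusted p = 0.103 by permutation) without control replicate 5 and obese replicate 2. It followed Dll4 with r = 0.673 (permutation p = 0.00584, adjusted p = 0.0434, rho = 0.686, permutation p = 0.00606, adjusted p = 0.0394), with r = 0.611 (adjusted p = 0.179 by permutation) without the same 2 mice. Dll1 ranked 16 and Dll4 ranked 99 of the 11035 genes by their r with Hes1. The 5 highest were Thap3 (0.84), Mta1 (0.83), Zfp777 (0.823), Gata6 (0.815) and Mepce (0.814), and the lowest were Arih1 (-0.884) and Tubd1 (-0.806). Dll1 and Dll4 followed each other (r = 0.776, permutation p = 0.00088, adjusted p = 0.0114, rho = 0.721, permutation p = 0.00317, adjusted p = 0.0278), and r was 0.856 without formerly obese replicates 3 and 5. The other listed pairs, Atoh1 with Dll1 and with Dll4, had r = 0.25 and 0.429 (permutation p = 0.366 and 0.111, adjusted p = 0.496 and 0.257), rho = 0.246 and 0.507 (permutation p = 0.374 and 0.0557, adjusted p = 0.571 and 0.181), and r = 0.113 and 0.338 without control replicate 4 and formerly obese replicate 4.

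**Figure D3:**
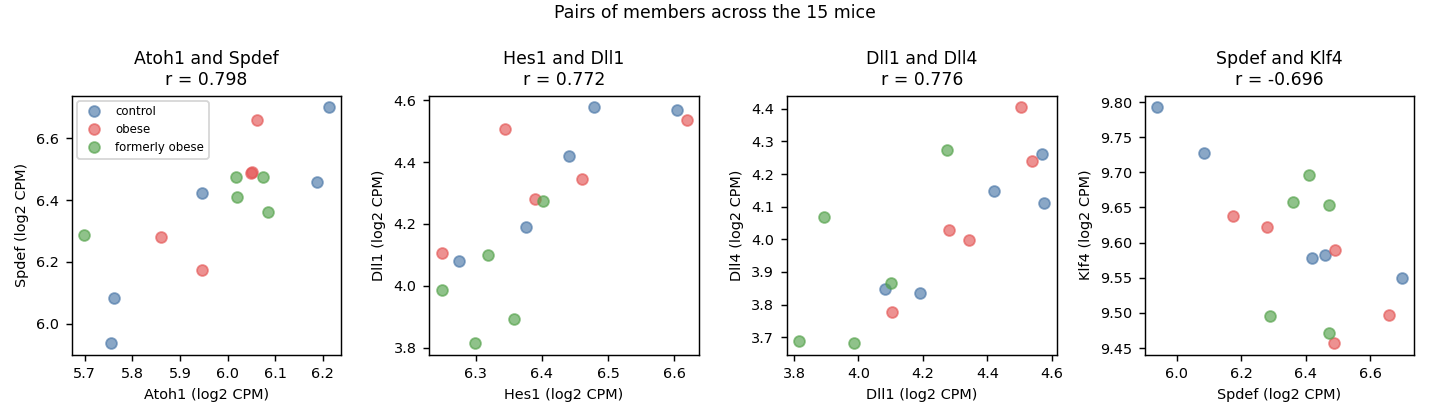
Pairs of members across the 15 mice, with log2 CPM on both axes and 1 point per mouse, coloured by diet. Atoh1 and Spdef (r = 0.798), Hes1 and Dll1 (r = 0.772) and Dll1 and Dll4 (r = 0.776) rise together. The negative relation of Spdef and Klf4 (r = -0.696) is weaker without the control mice at the upper left (r = -0.384).

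Spdef and Atoh1, which moved together, were also set side by side in sequence. The 250 bases before each start are shown (chr17:27728952-27729201, minus strand, and chr6:64728875-64729124, plus strand), with matches to TGGGAA, the core letters of RBPJ sites, to CAGCTG and to CACNAG, the N-box letters bound by Hes proteins, in capitals on either strand.

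Spdef upstream: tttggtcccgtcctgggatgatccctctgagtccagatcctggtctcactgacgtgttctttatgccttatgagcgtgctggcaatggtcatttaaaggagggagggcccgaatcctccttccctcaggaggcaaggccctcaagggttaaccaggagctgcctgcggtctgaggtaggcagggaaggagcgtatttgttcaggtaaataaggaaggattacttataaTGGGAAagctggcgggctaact
Atoh1 upstream: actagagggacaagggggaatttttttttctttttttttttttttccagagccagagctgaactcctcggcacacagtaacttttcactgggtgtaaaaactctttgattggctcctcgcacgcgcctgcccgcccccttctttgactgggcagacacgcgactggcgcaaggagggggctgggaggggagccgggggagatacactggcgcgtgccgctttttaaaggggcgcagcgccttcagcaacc

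Spdef held TGGGAA and Atoh1 none of the 3. RefSeq promoters were at hand for 9 of the 10 members. They came as 11 windows, since Dll1 and Gfi1 have 2 each, so the counts per gene and the shares of single windows are not on the same base. TGGGAA lay before 1 of these 9 genes, where 21.6% of 32851 windows of this length in the promoter table hold it. CAGCTG lay before 4 (Dll1, Jag1, Klf4 and Neurog3, against 13% of windows, with Dll1 counted through 1 of its 2 windows) and CACNAG before 2 (Dll4 and Notch1, against 36.7%).

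The wider pathway was described by 69 further Notch genes in 5 lists, of which 55 were tested. Only Notch4, Notch2 and Jag2 were tested among the other receptors and ligands, and Notch3, Dll3, Dlk1, Dlk2 and Dner stayed below the filter, as did Mfng, Numbl, and Hes3, Hes5, Hes7, Hey1, Hey2, Heyl and Olfm4 among the targets and markers of Notch activity. In obese against control mice 0 of the 55 were called higher and 1 lower (0.718% and 0.864% of all tested genes), in formerly obese against control mice 0 and 0 (edgeR, with 0 by DESeq2 and 11 at an unadjusted p under 0.05), and in formerly obese against obese mice 0 and 1. As shares these are 1.82%, 0% and 1.82%, near or below the 1.58%, 3.72% and 2.65% of all tested genes. An unadjusted edgeR p under 0.05 was met by 16.7% of all tested genes in formerly obese against control mice. The median log2 fold changes of the 55 were 0.04, -0.01 and -0.02.

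Maml3, a Mastermind coactivator of the Notch transcription complex, was the gene called in obese mice. It was at 36.9, 38.4, 35.8, 34.8 and 34.6 CPM in control and at 31, 32.3, 27.6, 26.7 and 32.2 CPM in obese mice, and the groups did not overlap, as for 2.47% of tested genes. It fell by 0.27 on the log2 scale (SE 0.07, edgeR adjusted p = 0.178, two-sided exact permutation p = 0.00794, unadjusted, the smallest that 5 against 5 mice can give). The call, close to the fold cutoff, was lost without control replicate 1 (log2 -0.26), control replicate 2 (-0.25), obese replicate 3 (-0.24), obese replicate 4 (-0.23) or obese replicate 5 (-0.30), and with the GC trend removed (-0.26). Its paralogs and other coactivators in the list were not called.

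Hes6, a relative of Hes1 that counteracts it, was called in formerly obese against obese mice. Its level was 74.7, 74.4, 77.5, 70.7 and 74.9 CPM in obese and 59.7, 61.7, 55.9, 73.7 and 58.4 CPM in formerly obese mice. All formerly obese mice but replicate 4 lay below each obese mouse. It fell by 0.27 on the log2 scale (SE 0.07, edgeR adjusted p = 0.0812, two-sided exact permutation p = 0.0159, unadjusted), but with each library's GC trend removed the difference was -0.15 and not called (edgeR adjusted p = 0.38). The call was also lost with no filter on low counts (log2 -0.26) and without obese replicate 3 (-0.25), formerly obese replicate 1 (-0.26), formerly obese replicate 3 (-0.24) or formerly obese replicate 5 (-0.25). Against control mice, at 63.7 to 74.8 CPM, Hes6 passed the p cutoffs and not the fold cutoff (log2 -0.21, edgeR adjusted p = 0.107). Hes6 followed Dll1 across the mice (r = 0.759, permutation p = 0.00121, adjusted p = 0.0126, rho = 0.725, permutation p = 0.00304, adjusted p = 0.0278). The r was 0.528 with diet groups centred and 0.578 without formerly obese replicates 3 and 5, with adjusted p = 0.178 and 0.23 by permutation. With the GC trend removed it was 0.531 (adjusted p = 0.17 by permutation).

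Smaller differences in the pathway had low p-values under the fold cutoff. Dtx4, a Deltex ubiquitin ligase gene, was at 24.9 to 29.4 CPM in formerly obese mice, below each control mouse at 30.5 to 31.8 CPM (log2 -0.22, SE 0.05, edgeR adjusted p = 0.035) and at 29.6 to 32.3 CPM in obese mice (log2 -0.19, edgeR adjusted p = 0.101). Neither pair of groups overlapped, as for 3.62% and 3.38% of all tested genes. Furin, the protease that matures Notch receptors among many other proteins, was at 82.9 to 97.2 CPM against 96.5 to 108.9 CPM in control mice (log2 -0.18, edgeR adjusted p = 0.0491) and 101.3 to 108.3 CPM in obese mice (log2 -0.22, edgeR adjusted p = 0.0541). With the GC trend removed both Furin differences were -0.10 (edgeR adjusted p = 0.321 and 0.439). Tle1, a Groucho corepressor, was at 38.9 to 45.8 CPM in obese and 39.6 to 43.6 in formerly obese mice, against 34.6 to 38.9 CPM in control mice (log2 0.23 and 0.20, edgeR adjusted p = 0.118 and 0.0621).

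Among 25 further transcription factors of the secretory lineages, 22 were tested. None was called in obese mice by edgeR or DESeq2 (0 of 22, with 2 at an unadjusted p under 0.05). In formerly obese mice 1 was higher against control mice (1.85% of all tested genes). Against obese mice 0 were called (0 by DESeq2, with 2 at an unadjusted p under 0.05). In the comparisons of obese with control and of formerly obese with obese mice, 10.9% and 13.4% of all tested genes had such a p. Bhlha15 (Mist1), a factor of cells with a large secretory apparatus, was at 3.99, 2.42, 4.71, 3.45 and 3.02 CPM in control mice. It was at 5.79, 3.61, 6.37, 4.62 and 4.38 CPM in obese and 2.85, 8.65, 6.19, 8.66 and 4.75 CPM in formerly obese mice. It rose in formerly obese against control mice by a log2 fold change of 0.82 (SE 0.26, edgeR adjusted p = 0.114), with 4 of the 5 mice above each control mouse and a two-sided exact permutation p of 0.0794, unadjusted. The call was lost without control replicates 2 (log2 0.71), 4 (0.81) or 5 (0.77), without formerly obese replicates 2 (0.68), 3 (0.82) or 4 (0.67), and in a fit of those groups alone (0.82). Foxa1, a forkhead factor of goblet and enteroendocrine cells, was at 118.4 CPM in obese and 107.2 CPM in control mice. It had 1 of the 3 lowest p-values within the Notch lists and this list, and was not called (log2 0.14, edgeR adjusted p = 0.255).

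**Figure D4:**
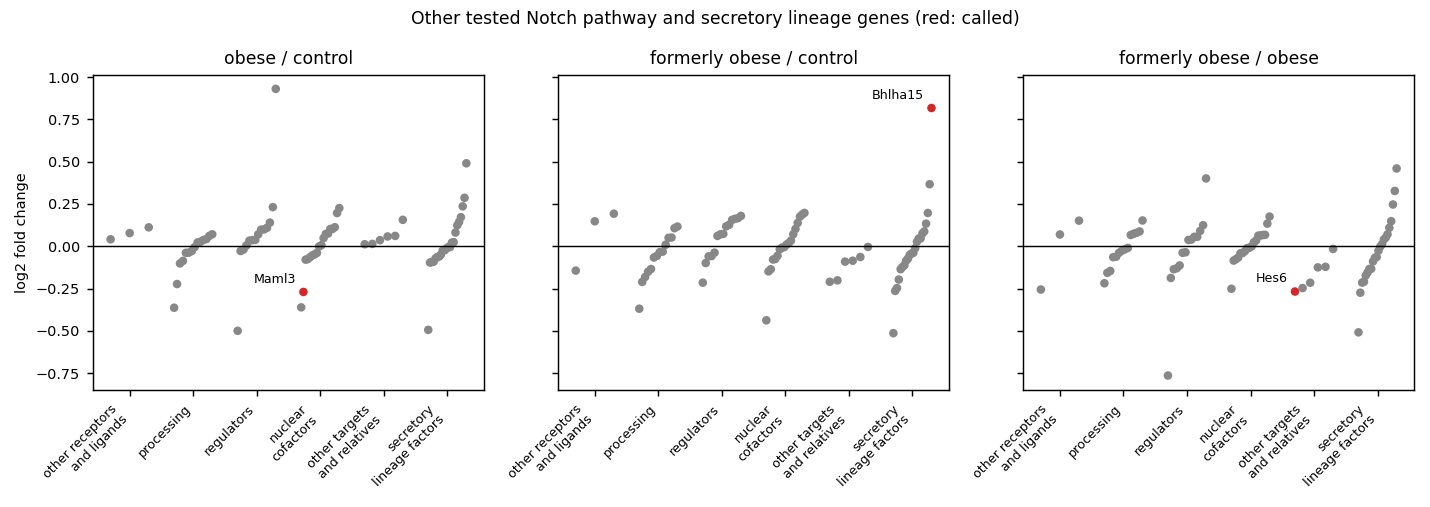
Log2 fold change (vertical axis) of each tested gene of the 5 Notch lists and the secretory factor list, with 1 point per gene in order of value within a list, in the 3 comparisons. Called genes are red and named, and they are Maml3, Bhlha15 and Hes6.

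The cells that these genes specify were read from marker lists. Of 15 goblet genes, Spink4 was higher in obese mice (log2 0.34, edgeR adjusted p = 0.214), and leaving out single libraries ended the call in 7 of 15 fits (log2 0.27 to 0.40 over all 15), as did dropping the filter on low counts. Ramp1, which encodes a receptor activity-modifying protein, was at 42.4 CPM in formerly obese mice and was lower than in control (57.6 CPM, log2 -0.44, edgeR adjusted p = 0.0303) and obese mice (56.1 CPM, log2 -0.41, edgeR adjusted p = 0.0812). The other goblet genes, Muc2 among them, were not called, and the list summed to 11290 to 14730 CPM in control, 11690 to 14420 in obese and 11330 to 15090 CPM in formerly obese mice. In the count table the goblet gene now named Clca1 carries its older symbol Clca3, and both symbols were in the list. Of 12 enteroendocrine genes, Pyy was lower in formerly obese against obese mice (log2 -0.35, edgeR adjusted p = 0.163), a call lost in 6 of 15 fits (log2 -0.41 to -0.28) and with the GC trend removed (-0.29). Among the tuft cell genes, Trpm5 and Dclk1 were higher in formerly obese against control mice (log2 0.41 and 0.32, edgeR adjusted p = 0.0902 and 0.132), with calls lost in 4 and 7 of 15 fits (log2 0.33 to 0.50 and 0.26 to 0.38). Of 6 Paneth and deep crypt secretory genes, Lyz1 was higher in obese than in control mice (3.19 against 0.824 CPM, log2 1.95, edgeR adjusted p = 0.0468) and lower in formerly obese than in obese mice (0.903 CPM, log2 -1.81, edgeR adjusted p = 0.0468). Itln1 was at 2.83, 1.31 and 3.47 CPM in control, obese and formerly obese mice, lower in obese than in control mice (log2 -1.11, edgeR adjusted p = 0.182, lost in 7 of 15 fits with log2 of -1.30 to -0.79) and higher in formerly obese than in obese mice (log2 1.41, edgeR adjusted p = 0.0582). Ang4 was higher in formerly obese against obese mice (log2 1.16, edgeR adjusted p = 0.193), a call lost in 10 of 15 fits (log2 0.88 to 1.35) and by DESeq2. These 3 genes have close paralogs, so their counts are uncertain. On the absorptive side, 4 of 10 colonocyte genes were higher in formerly obese mice against control and 4 against obese mice. Of all tested genes, 1.85% and 1.23% were called higher in these comparisons. Slc26a3, a chloride-bicarbonate exchanger, was among them both times, at log2 0.41 and 0.62 (edgeR adjusted p = 0.0818 and 0.0433). The first of these Slc26a3 calls was lost without control replicate 5 (log2 0.36) or formerly obese replicate 5 (0.33). The colonocyte list summed to 14550 to 20360 CPM in formerly obese mice, against 10480 to 17220 in control and 10950 to 16460 in obese mice. Car1 was the largest part of these sums, with means of 4103, 4634 and 7129 CPM in control, obese and formerly obese mice. Guca2b (22.75 and 21.67 CPM) and Slc37a2 (348.7 and 314.9 CPM) had lower means in formerly obese than in control mice, and the other listed genes had higher ones. Of the 3 tested endothelial genes, Esam was lower in formerly obese against control mice (1.19 and 1.81 CPM, log2 -0.61, edgeR adjusted p = 0.135), a call lost in 9 of 15 fits (log2 -0.69 to -0.52) and by DESeq2. None of the tested proliferation (10), stem cell (8), fibroblast (4) or immune (9) genes was called in any comparison by edgeR or DESeq2. In each of these lists 0 to 2 genes had an unadjusted edgeR p under 0.05. The 2 were among the 4 fibroblast genes, in formerly obese against control mice. The log2 fold changes of these 4 genes were 0.65 to 1.36 in that comparison. An unadjusted p under 0.05 was met by 10.9%, 16.7% and 13.4% of all tested genes in the 3 comparisons in the order above. Genes of the colonocyte, tuft and immediate early lists moved in the mice where Dll1 was lower, and their part in the Dll1 difference was not tested.

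Whole-genome bisulfite sequencing (WGBS) gave a list of 8199 regions whose CpG methylation differed between obese and control mice (DMRs), 4123 more methylated (hyper) and 4076 less methylated (hypo) in obese mice. The list holds a position and a direction and no value per mouse. A DMR lay within 100 kb of the start of 6 of the 10 members, as for 56% of all tested genes, and within 10 kb of 2, as for 9.58%. Hes1, Dll4, Jag1 and Klf4 had none within 100 kb. The 2 members within 10 kb were Atoh1 and Spdef.

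At Atoh1, a hyper-DMR of 51 bases lay 5.87 kb downstream of the start and 3778 bases past the end of the gene (chr6:64735013-64735063), outside any RefSeq gene, and a hypo-DMR of 164 bases lay 48.4 kb upstream. At Spdef, hyper-DMRs lay 6.42 kb upstream, between genes (chr17:27735368-27735384, 17 bases), and 29.4 kb upstream in an intron of Ilrun (chr17:27758398-27758522, 125 bases). Of all tested genes, Atoh1 and Spdef had the starts nearest to these 4 DMRs. Neither gene was called between obese and control mice, as given above. The deposited starts of all 8199 regions count from 0, so that each begins on the C of a CG and ends on the G of one when the reference is read at these positions.

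The nearer DMR of each gene is printed with 60 bases on both sides, plus strand of GRCm38 (chr6:64734953-64735123 and chr17:27735308-27735444). The CpGs inside the DMR are in capitals because the list is of CpG methylation. It does not say which of these CpGs differed.

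Atoh1 downstream DMR: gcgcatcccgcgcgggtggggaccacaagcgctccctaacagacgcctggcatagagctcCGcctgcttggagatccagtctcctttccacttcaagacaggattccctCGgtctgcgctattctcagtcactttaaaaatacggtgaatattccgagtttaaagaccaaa
Spdef upstream DMR: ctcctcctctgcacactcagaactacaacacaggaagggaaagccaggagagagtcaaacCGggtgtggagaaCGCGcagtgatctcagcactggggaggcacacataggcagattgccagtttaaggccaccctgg

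The Atoh1 region held 2 CpGs and the Spdef region 3. The 125-base region 29.4 kb from Spdef also held 3 CpGs. Gfi1 had a hyper-DMR 43.9 kb downstream of its start between genes (chr5:107681846-107681881). Notch1 had a hyper-DMR and a hypo-DMR at 65.6 and 79.8 kb, in an intron and an exon of Sec16a. Neurog3 had a hyper-DMR at 84.3 kb in an intron of Tspan15, and Dll1 a hypo-DMR 73.1 kb upstream between genes. For the regions near Notch1, Neurog3 and Dll1 another tested gene had the nearest start. CpGs measured by bisulfite amplicons were all further than 100 kb from each member, so no methylation level per mouse was set beside these genes.

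**Figure D5:**
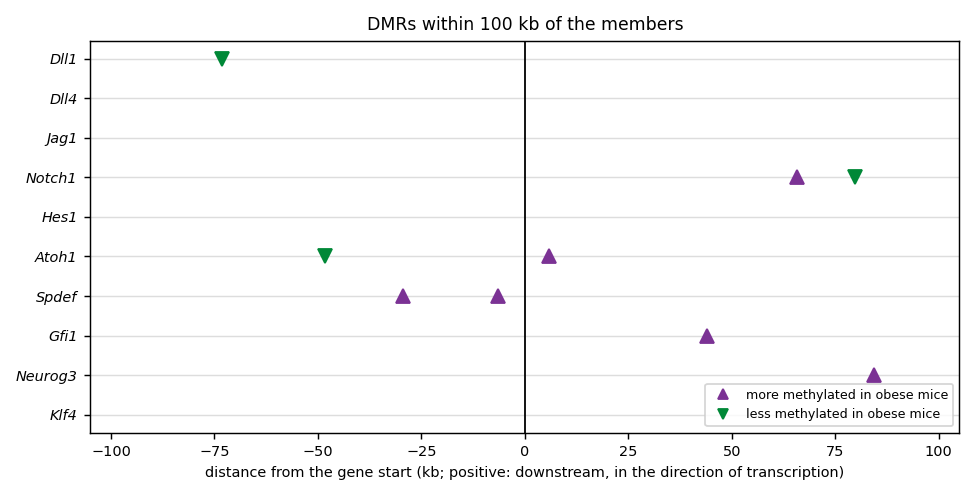
Distance of each DMR within 100 kb from the start of a member (horizontal axis, in kb, positive downstream). Upward triangles are more and downward triangles less methylated in obese than in control mice. Atoh1 and Spdef have the nearest DMRs, at 5.87 and 6.42 kb, and Hes1, Dll4, Jag1 and Klf4 have none.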

How the data were processed

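Per the labels and the methods of the study, paired reads of stranded mRNA libraries were mapped to mm10 with TopHat2 (2.0.4 in the submitters' processing notes) and counted per gene with HTSeq, and the authors deposited raw counts per gene for 15 mice. The strand mode and annotation release were not given in the sources used here, so reads of genes that overlap on either strand may have been assigned to the wrong one. The authors deposited WGBS results as a list of DMRs (Bismark mapping, Rao Scott likelihood ratio test), and bisulfite amplicon (BSP-seq) methylation as a fraction per CpG and mouse, of which only the CpG positions were used here. The 2 deposited DESeq2 tables hold the authors' own fold changes and p-values and were not used.

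Counts were analysed in R 4.3.3 with edgeR 4.0.16 (filterByExpr, TMM, 1 quasi-likelihood fit of all 15 libraries, group as the only term), with DESeq2 1.42.0 as an alternative. Log2 CPM used a prior count of 2. The fit was tested on simulated data. Exon lengths and GC content came from RefSeq GRCm38.p6 for 99.37% of the entries. Correlations and exact tests used scipy 1.17.1. Replicates are labelled as separate mice, and every pair within a group differed by a chi-square of at least 5.73 per degree of freedom, where sampling noise alone gives about 1. The named genes were the 10 members, the genes of the 5 Notch lists and the secretory factor list that were called or had 1 of the 3 lowest p-values in a comparison, up to 3 called genes per marker list and comparison, and for Hes1 and Atoh1 the 5 genes with the highest and the 2 with the lowest r. Genes outside the rule (Muc2, Chga, Krt20, Hes6 as a pair of Dll1, and epithelial and stromal check genes) were chosen after their values were seen. Members, lists and tests were chosen with earlier results of these data known. Some items of the marker lists and of the annotation are not reported here.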

Additional observations from a re-analysis of the deposited data

Results flagged for a closer look

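In each group of 5 mice, the gap of the highest or lowest mouse to its nearest neighbour was compared with the range of the group (Dixon's test, critical value 0.71), for 10 genes and 3 groups. In 2 of the 30 groups a mouse stood apart. Chance flags about 1 in 20 groups, and such a number is near that. Jag1 was at 36 CPM in obese replicate 3, with the other obese mice at 28 to 29.6 CPM (gap over range 0.805). Atoh1 was at 51.8 CPM in formerly obese replicate 4, with the other formerly obese mice at 64.7 to 67.8 CPM (gap over range 0.808).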

How the results depend on the processing

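The alternatives were DESeq2, other scalings, filters and cutoffs, a fit of the compared groups alone, a replicate block, removal of the GC trend and leaving out each library. No member other than Dll1 was called under any of them. With no fold cutoff and a Benjamini-Hochberg limit of 0.05, 16, 282 and 25 genes were called in obese against control, formerly obese against control and formerly obese against obese mice, and 0 members in each of the last 2. Without single libraries, 0 to 0, 0 to 1 and 0 to 1 members and 40 to 331, 362 to 660 and 167 to 400 genes were called.

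Same-numbered libraries of different groups had deviations from their group means that correlated at -0.231 to 0.333. Libraries with different numbers were not compared in this way, so whether same-numbered libraries share more than a number was not tested. The replicate block alone kept both Dll1 calls. Together with GC removal it left 0 members called in both comparisons with formerly obese mice, and the cause was not tested.

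Several uncalled log2 fold changes near 0 changed sign. For Atoh1 in formerly obese against control mice they were 0.0014 by DESeq2, 0.0014 with its size factors, 0.0002 with no filter, 0.0013 with at least 10 counts in every library, 0.0023 in the fit of those groups alone, 0.0033 with the replicate block, 0.018 with GC removal and 0.0213 with the block and GC removal. In formerly obese against obese mice, GC removal without and with the block gave 0.0298 and 0.0247 for Notch1, 0.0262 and 0.0224 for Gfi1, and 0.0119 and 0.0179 for Spdef. Leaving out single libraries gave, in obese against control mice, -0.0437 to 0.0694 for Atoh1, -0.0846 to 0.0387 for Dll1, -0.0312 to 0.126 for Dll4, -0.0053 to 0.1627 for Gfi1, -0.0742 to 0.0259 for Hes1 and -0.0045 to 0.1833 for Spdef. In formerly obese against control mice it gave -0.0532 to 0.0657 for Atoh1, -0.0513 to 0.1193 for Gfi1, -0.0274 to 0.0801 for Notch1 and -0.0292 to 0.1581 for Spdef. In formerly obese against obese mice it gave -0.0409 to 0.0545 for Atoh1, -0.1219 to 0.0367 for Gfi1, -0.0657 to 0.0925 for Jag1, -0.2467 to 0.0795 for Neurog3, -0.0857 to 0.0252 for Notch1 and -0.0826 to 0.0403 for Spdef.

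Without the 2 mice farthest from the median, r was -0.004 for Notch1 and Hes1, 0.406 for Atoh1 and Gfi1, and -0.384 for Spdef and Klf4, and with diet groups centred it was 0.641 for Atoh1 and Gfi1. A DMR lay within 10 kb of the start of 2 members, within 50 kb of 3, within 100 kb of 2 for DMRs of at least 50 bases, and within 10 kb of the gene body of 2, beside 9.58%, 34.8%, 23.7% and 20.6% of all tested genes. The amplicon alternatives were not run, because no amplicon CpG lay within 100 kb of a member. Neurog3 rested on 13 to 41 counts per library, the fewest of the members.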
